A study of Homo sapiens with 10 samples.

Results

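The genes that carry a cell from growth-factor stimulation into DNA replication were examined for binding of MYC and of the MYC mutants 3A and 7A. They are 10 genes chosen by name: the D-type cyclin genes CCND1, CCND2 and CCND3, the kinase genes CDK4 and CDK6, the E-type cyclin genes CCNE1 and CCNE2, the kinase gene CDK2, the phosphatase gene CDC25A and the transcription factor gene E2F1. All 10 were found in a RefSeq table that holds 20037 protein-coding genes on the assembled chromosomes. A gene counted as bound in a peak list when a summit, the position of highest signal in a peak, lay inside the gene span or within 5 kb of its ends.

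D-type cyclins bind CDK4 and CDK6 in G1, and these kinases begin the phosphorylation of the retinoblastoma protein RB. Cyclin E with CDK2 completes it, CDC25A removes inhibitory phosphates from CDK2, and E2F1, released from RB, drives the genes of S phase. MYC is known for shortening G1, and several of these genes, CCND2, CDK4 and CDC25A among them, are described in the literature as its direct targets. MYC pairs with MAX and prefers the letters CACGTG, the E-box.

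The cells were U2OS, a human osteosarcoma line, with the endogenous MYC gene knocked out and a doxycycline-inducible FLAG-tagged MYC put in. An anti-FLAG antibody pulled down the bound chromatin, which was then sequenced (ChIP-Rx, in which mouse NIH3T3 cells, here 10%, serve as a reference genome). The 10 libraries are 2 immunoprecipitates (IPs) each of MYC-3A, MYC-7A and MYC-WT after 24 h with 1 µg/mL doxycycline, 2 IPs of MYC-WT without doxycycline, and 1 input each of MYC-WT with and without doxycycline. All groups therefore lack endogenous MYC, and the induced protein is expressed from a transgene. The residues changed in 3A and 7A are not given in the labels.

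The measurements are 3 peak lists, 1 for each induced protein, holding 845 peaks for 3A, 64 for 7A and 4749 for WT. There were no replicate lists, so no spread between replicates and no test between proteins could be had. No list of the uninduced IPs was used here, and no site could therefore be set against its level without doxycycline. A missing peak says only that the authors' peak caller returned none there. The authors' fold enrichment is the IP pileup at the summit over the local background of the same list. It is used below to rank sites within a list, and folds of different lists are placed side by side without being compared. The number of fragments, or of reads extended to fragment length, stacked at each summit (the pileup) and the local background were recovered from the fold and its p-value, and the 95% intervals are exact Poisson intervals of the pileup with the background held fixed. They cover counting error only. Any PCR copies left in a pileup are not independent molecules and would make the intervals too narrow. Whether intervals overlap is given as a description and is not a test.

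Of the 10 genes, 2 had a summit in the 3A list (CCND2 and CDK4), none had one in the 7A list, and 8 had one in the WT list. The WT list held no summit at CDK2 or CDC25A. Over all 20037 protein-coding genes the same rule called 4.81% for 3A, 0.225% for 7A and 23.8% for WT. The absence from the 7A list therefore says nothing particular about these genes, since a 7A summit is rare at any gene. The WT count of 8 of 10 stood above the share of all genes. That share takes in all genes, whether or not they are active in these cells, and the part of gene activity in the difference was not tested. The members were chosen with earlier results of these data known, and several are described in the literature as MYC targets. The difference is therefore a description only. Of the 8 genes with a WT summit, 2 (CCND2 and CDK4) also had a 3A summit, where 18.6% of all WT-bound genes did. With 8 genes this share is close to that of WT-bound genes in general and is no result about the members.

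**Figure D1:**
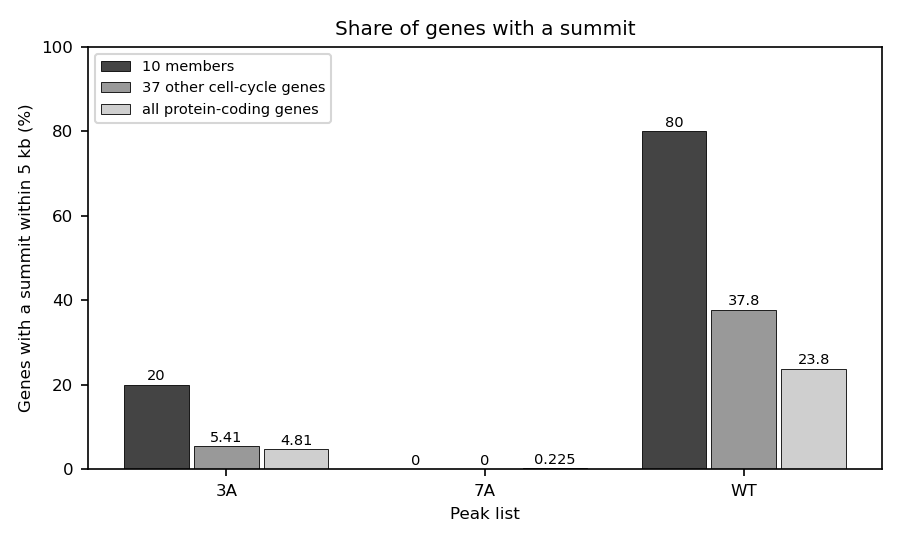
Percentage of genes with a summit inside the span or within 5 kb of its ends (vertical axis, starting at 0) in the 3A, 7A and WT peak lists, for the 10 members, 37 other cell-cycle genes and all 20037 protein-coding genes. The members' bar is 20.0% for 3A, 0% for 7A and 80.0% for WT, against 4.81%, 0.225% and 23.8% of all genes.

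The 8 genes held 11 WT summits, because CCND1, CCND2 and CDK6 had a pair each. A pair or more was found at 589 of all 20037 protein-coding genes (2.94%), of which 4762 had any WT summit. Of the 10 members 3 had a pair, and 8 had any WT summit. The paired peaks lay only 804 bp apart at CCND1 and 510 bp apart at CCND2. With peaks within 1 kb merged, the 11 WT summits became 9 and only CDK6 kept a pair. Both 3A summits overlapped a WT peak, and the other 9 WT peaks had no 3A counterpart. The share of all WT peaks with a 3A counterpart was not counted. By gene, 18.6% of all WT-bound genes had a 3A summit, so the 9 are no result about the members. For 9 of the 11 WT summits the nearer end of the gene lay 40 to 1285 bp away. The exceptions were a summit 1851 bp outside CCND1 and a summit 95711 bp inside CDK6. Of all 4749 WT summits 60.2% lay within 1 kb of the end of a coding gene, so a place near a gene end is common in that list. The members' spans ran from 4584 bp for CDK4 to 231653 bp for CDK6, with a median of 14894.5 bp beside 24115 bp for all protein-coding genes. The WT rule called 26.1% of all genes over 100 kb and 23.3% of shorter ones, and the part of gene length in the members' count was not tested.

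**Figure D2:**
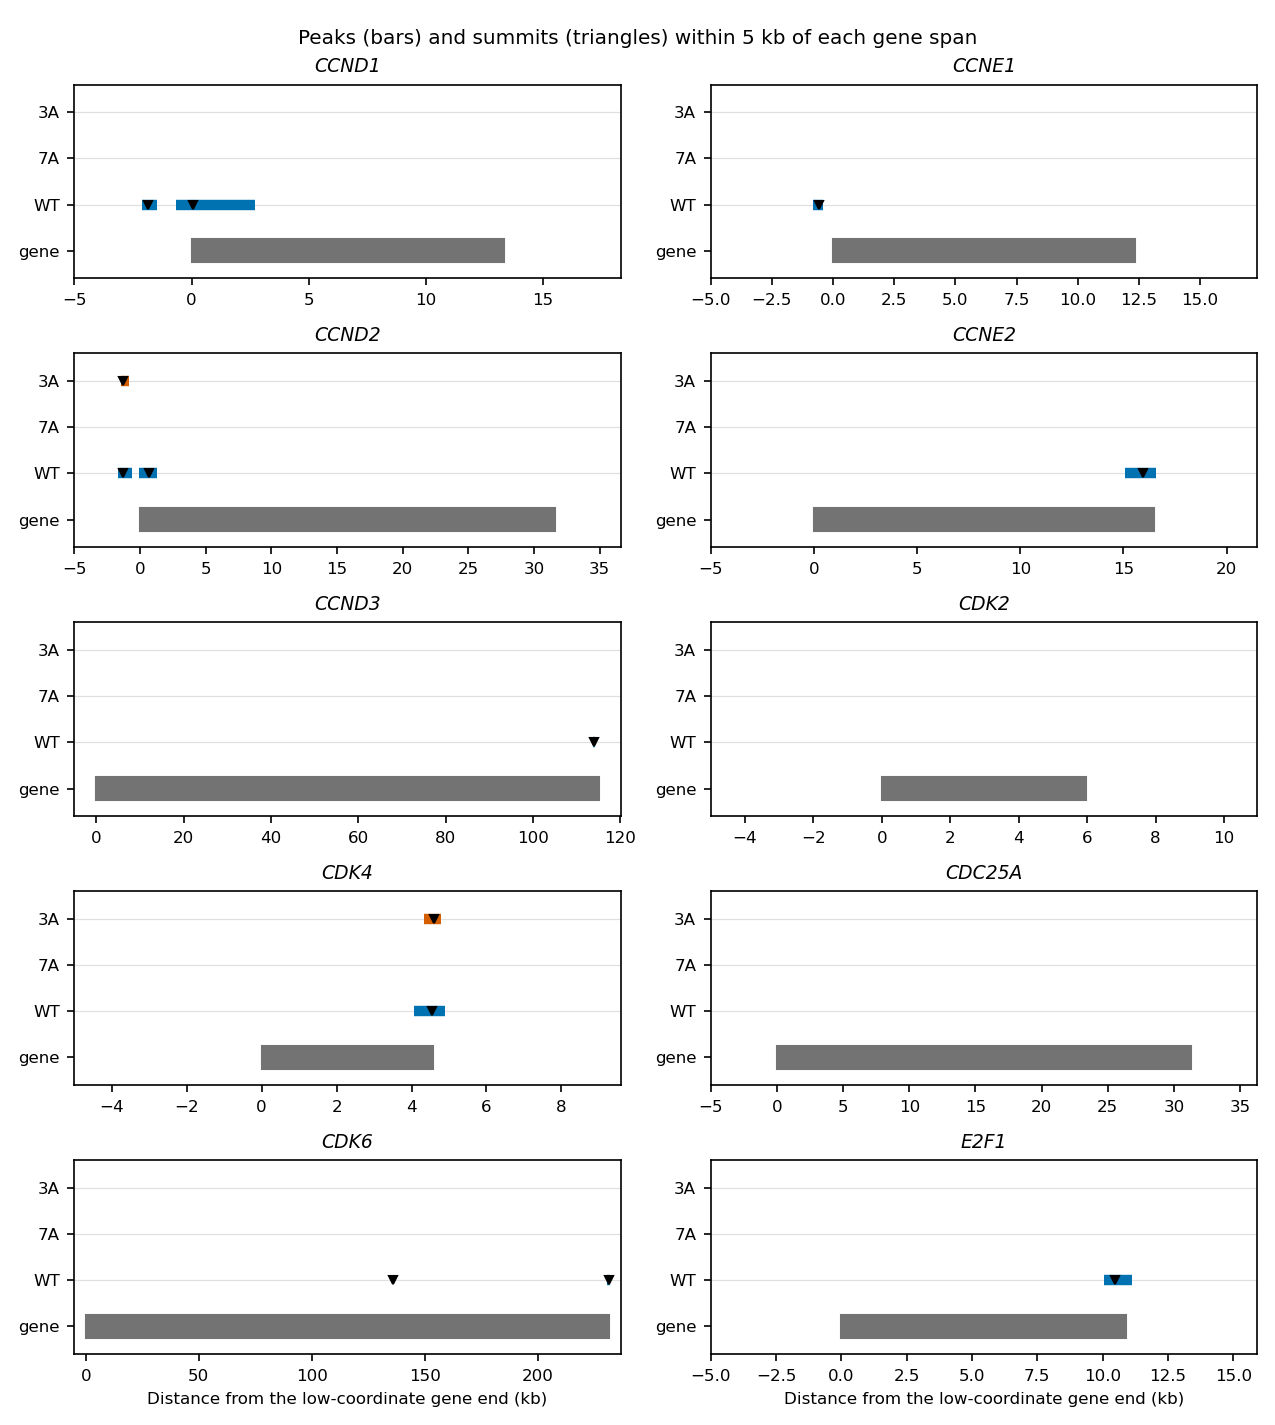
Peaks (bars) and their summits (triangles) in the 3A, 7A and WT lists, drawn against the distance in kb from the low-coordinate end of each gene, with the gene span in grey. Peaks narrower than the triangle are hidden by it, as at CDK6 and CCND3. Summits stand at 1 end of the gene, apart from the one deep inside CDK6, and the CDK2 and CDC25A panels hold none.

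Among the D-type cyclin genes CCND2 stood apart, and it alone had a 3A summit. The highest WT folds of CCND1 and CCND3 were alike, 5.10 and 5.15. CCND2 (chromosome 12, 4273762 to 4305353) had the strongest site of the set. In the 3A list its summit had a fold of 3.79 (95% interval 3.04 to 4.68), from a pileup of 85 fragments over a background of 21.7, and it ranked 273 of 845. In the WT list the summit had a fold of 12.7 (11.2 to 14.4), from 251 fragments over 18.8, and it ranked 133 of 4749. The site was high in the WT list, above 97.2% of WT peaks, and in the upper part of the 3A list, above 67.7% of 3A peaks. The summits lay 18 bp apart, 1303 bp (3A) and 1285 bp (WT) outside the low-coordinate end of CCND2. The 3A peak spanned 4272273 to 4272945 and the WT peak 4272103 to 4273176. CCND2 is known to be transcribed from its low-coordinate end, so the site is upstream of it. The same bases lie inside the span of CCND2-AS1, a long non-coding RNA gene (4248767 to 4276184), and binding there cannot be assigned to one gene or the other.

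A second WT peak at CCND2 (4273687 to 4275074) began 510 bp beyond the first and had its summit 710 bp inside the gene. Its fold was 3.50 (2.81 to 4.30), above 9.94% of WT peaks by fold and 35.2% by −log10 q, and its interval did not meet that of the upstream summit. It had no 3A counterpart. This inner summit lies inside the span of CCND2-AS1 too. Of the pair of WT sites at CCND2, the one with the lower fold and the lower −log10 q was absent from the 3A list. That describes 1 pair only. CCNE2 had no 3A summit at a WT fold of 7.45, and CDK4 had one at 6.69. By −log10 q in the WT list CCNE2 was the lower, 59.0 against 67.5.

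CCND1 (chromosome 11, 69641156 to 69654474) had a pair of WT summits as well, and no 3A or 7A summit within 5 kb. The summit at the gene itself lay 47 bp inside the low-coordinate end, from which CCND1 is known to be transcribed. Its fold was 5.10 (4.08 to 6.31), from 83 fragments over 15.5, close to the median of the WT list, 5.14. This peak stood out by its width. It covered 3367 bp, from 69640497 to 69643863, the fifth widest of the 4749 WT peaks (width rank 5), with 659 bases outside the gene and 2708 inside it. A narrower WT peak of 667 bp ended 804 bp before it, with its summit 1851 bp outside the gene and a fold of 4.85 (3.66 to 6.30). The intervals of the 2 summits overlapped.

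CCND3 (chromosome 6, 41934933 to 42050035) had 1 WT summit, 1130 bp inside the high-coordinate end, with a fold of 5.15 (4.12 to 6.37) from 83 fragments over 15.3. RefSeq gives 3 start sites for CCND3, and the summit lay 217 bp upstream of the one at 42048688. The span of TAF8, which encodes a subunit of the general transcription factor TFIID, starts 1619 bp from the same summit. The stretch upstream of that start (GRCh38.p14, chr6:42048689-42048938, minus strand, 5′ to 3′, RefSeq) is shown because the WT summit falls in it. Capitals mark the only match to CACGTG or to the variants CACGCG and CATGTG, searched on both strands.

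CCND3 upstream: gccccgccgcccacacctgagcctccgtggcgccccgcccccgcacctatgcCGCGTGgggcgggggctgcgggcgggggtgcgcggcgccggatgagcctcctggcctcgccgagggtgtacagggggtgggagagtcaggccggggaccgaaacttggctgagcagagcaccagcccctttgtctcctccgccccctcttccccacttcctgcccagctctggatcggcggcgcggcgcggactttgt

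The match reads CGCGTG, the reverse complement of CACGCG, and lies 19 bp from the WT summit. CACGCG or its reverse complement occurs in 9.72% of the 35116 upstream stretches of the same length in the table, so a match is common and describes the letters only.

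The kinase partners of the D cyclins were both WT-bound, and CDK4 alone of them was 3A-bound. CDK4 (chromosome 12, 57747727 to 57752310) had a 3A summit with a fold of 3.12 (2.47 to 3.89), from 76 fragments over 23.7, ranking 545 of 845. Its WT summit had a fold of 6.69 (5.66 to 7.85), from 148 fragments over 21.3, ranking 1194 of 4749. By fold the site was above 35.5% of 3A peaks and 74.9% of WT peaks, and by −log10 q above 52.9% of 3A peaks and 88.6% of WT peaks. Its side of the middle of the 3A list thus turned with the ranking. The summits lay 46 bp apart around the RefSeq start of CDK4, the 3A summit 6 bp upstream of it and the WT summit 40 bp downstream. The 3A peak (57752057 to 57752526) lay within the WT peak (57751786 to 57752610). The span of TSPAN31 (57745039 to 57750219) overlaps the low-coordinate part of CDK4, and MARCHF9 lies beyond the other end. Both genes were at least 2051 bp from both summits. The 250 bases upstream of the start (GRCh38.p14, chr12:57752311-57752560, minus strand, RefSeq) are shown because CDK4 is the member bound at its start in both lists. Capitals mark matches to CACGTG and to CATGTG on either strand.

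CDK4 upstream: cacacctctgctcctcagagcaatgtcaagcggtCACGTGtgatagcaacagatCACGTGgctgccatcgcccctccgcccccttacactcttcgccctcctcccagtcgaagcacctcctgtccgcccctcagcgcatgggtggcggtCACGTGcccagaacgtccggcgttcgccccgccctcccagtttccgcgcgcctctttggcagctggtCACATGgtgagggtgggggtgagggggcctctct

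CDK4 held 3 copies of CACGTG in this stretch, beginning 216, 196 and 101 bases upstream of the start (position 0), and a CACATG, the reverse complement of CATGTG, beginning 34 bases upstream. At least 1 CACGTG occurs in 6.34% of the 35116 stretches, and 3 or more occur in 28 of them (0.0797%). CATGTG or its reverse complement occurs in 9.42%. The nearest CACGTG lay 90 bp from the 3A summit and 136 bp from the WT summit, so neither summit sat on one. The CACATG lay 23 bp from the 3A summit and 69 bp from the WT summit.

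CDK6 (chromosome 7, 92604921 to 92836573) had a pair of WT summits 95593 bp apart and no mutant summit. The one at the high-coordinate end, 118 bp downstream of the RefSeq start at 92836573, had a fold of 6.19 (5.01 to 7.58), from 92 fragments over 14.0. A CACGTG lay 83 bp from this summit, 30 bases downstream of the start. CDK6-AS1, a long non-coding RNA gene, has its nearer end 28 bp from the same summit, which cannot be assigned to one gene or the other. The second summit, at 92740862 within the gene, was 93097 bp downstream of the nearest RefSeq start and had a fold of 5.33 (4.07 to 6.87). It came from a peak of 376 bp, wider than only 2.63% of WT peaks. The intervals of the pair overlapped.

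The E-type cyclin genes lay near opposite ends of the set. CCNE2 (chromosome 8, 94880224 to 94896693) had a WT summit 546 bp inside its high-coordinate end, with a fold of 7.45 (6.17 to 8.90), from 118 fragments over 15.0, above 81.6% of WT peaks. The peak of 1484 bp also covered the low-coordinate end of NDUFAF6, the gene of a mitochondrial complex I assembly factor, and the summit lay 348 bp inside that span. The genes overlap there, and the signal cannot be divided between them. CCNE1 (chromosome 19, 29811991 to 29824312) had the weakest WT summit of the set. It lay 576 bp upstream of the RefSeq start, with a fold of 2.92 (2.29 to 3.67), above 3.07% of WT peaks. Its pileup of 71 fragments was not the lowest among the members, whose WT pileups ran from 54 to 251. Its local background of 23.7 was near the top of their range, which was 10.1 to 24.2. The whole peak of 437 bp ended before the gene began. The WT intervals of CCNE1 and CCNE2 did not meet, and neither gene had a 3A or 7A summit.

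CDK2 (chromosome 12, 55966830 to 55972789), the kinase that cyclin E activates, had no summit in any list. Its nearest 3A summit was 143966 bp away at RPL41, a ribosomal protein gene, its nearest 7A summit was 10197042 bp away, and its nearest WT summit was 106493 bp away beside ERBB3, with a fold of 3.41. CDC25A (chromosome 3, 48157146 to 48188417) had none either. The nearest 3A summit lay 112915 bp from it at NME6, the nearest 7A summit 30318282 bp from it, and the nearest WT summit 67748 bp from it beside MAP4, with a fold of 6.27. CDC25A is described in the literature as a MYC target with E-boxes inside the gene, and no summit of any list lay anywhere in its span of 31272 bp. The 250 bases upstream of its RefSeq start (GRCh38.p14, chr3:48188418-48188667, minus strand) are shown beside those of CDK4 and CCND3. They hold none of the 3 motifs, and no capitals appear. The upstream stretches given for CCNE1, E2F1 and CDK6, which are WT-bound, hold none either. The lack of a motif therefore does not set CDC25A apart from the bound members.

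CDC25A upstream: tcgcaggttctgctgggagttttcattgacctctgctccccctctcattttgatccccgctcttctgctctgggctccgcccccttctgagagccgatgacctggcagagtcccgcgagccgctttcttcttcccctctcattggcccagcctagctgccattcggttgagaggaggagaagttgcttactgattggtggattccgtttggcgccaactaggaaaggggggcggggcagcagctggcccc

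Among the 9 upstream stretches that the table gives for 6 members, the CDC25A stretch had the lowest GC content. It was 60.0% GC with a ratio of observed to expected CpG of 0.490. The stretches nearest to a WT summit were 65.6% GC for CDK4, 72.4% for E2F1, 74.4% for CCND3, 80.0% for CDK6 and 81.2% for CCNE1. The median over all 35116 stretches was 58.0% (quartiles 46.4 to 68.0%). CDC25A thus lay near the median of all promoters, and 4 of the 5 others lay above the upper quartile. The remaining stretches, farther from a WT summit, were 61.2% and 71.2% GC for CCND3 and 67.6% for CDK6. A stretch of a bound gene can therefore be close to CDC25A in GC. With 6 genes this is a description only. CCND1, CCND2, CCNE2 and CDK2 have no entry in the table.

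E2F1 (chromosome 20, 33675477 to 33686385), the transcription factor that RB holds in check, had 1 WT summit and no mutant summit. The summit was 448 bp downstream of the RefSeq start, with a fold of 3.91 (3.00 to 5.02), from 60 fragments over 14.6, above 18.9% of WT peaks. The peak of 1082 bp reached 233 bases past the start into the upstream stretch, which held none of the 3 motifs. The nearest 3A summit was 616525 bp away.

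Ordered by WT fold, the upstream CCND2 summit stood alone: its interval did not meet that of the next, CCNE2. From there down came CDK4, the summits of CDK6, CCND3 and CCND1, then E2F1, the inner CCND2 summit and CCNE1. From CCNE2 on, each summit's interval overlapped that of its neighbour. Taking the highest fold at each bound gene, the 8 members had a median of 5.67, beside 5.32 for all 4762 genes with a WT summit (quartiles 4.24 to 7.06). The members' WT count thus stood above the share of all genes, while the median of their folds lay within the quartiles of all WT-bound genes. In the 3A list the 2 members had a median highest fold of 3.46, beside 3.43 over 964 genes.

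**Figure D3:**
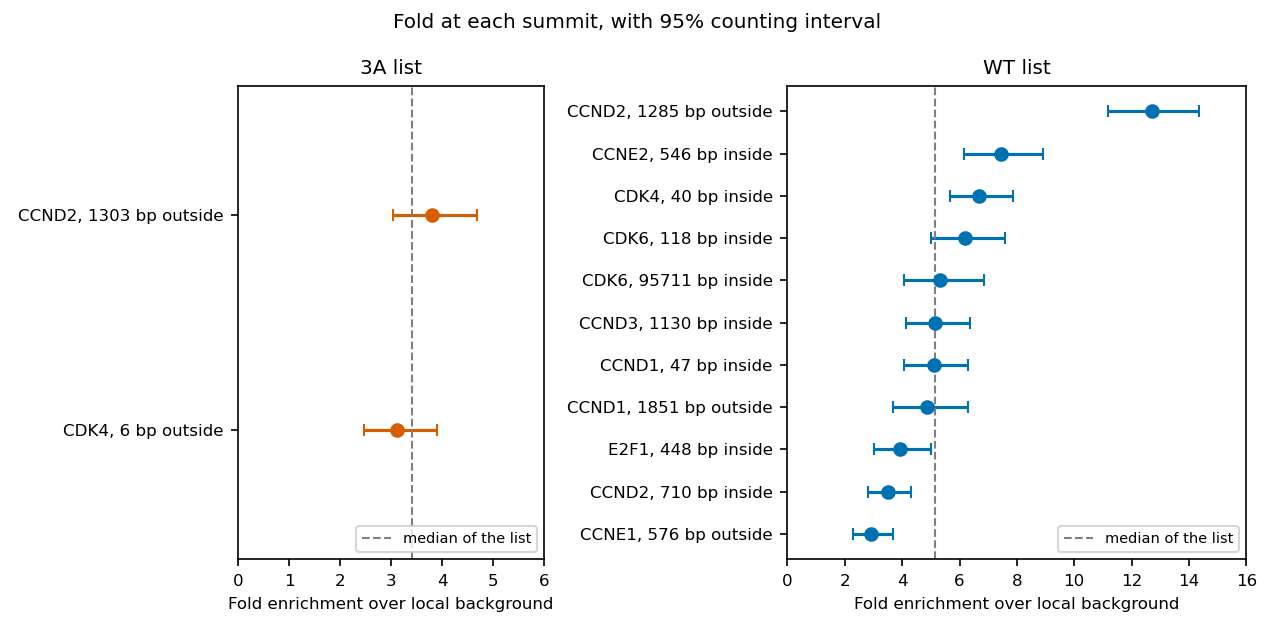
Fold enrichment over local background at each summit (horizontal axis) in the 3A list, left, and the WT list, right, with bars for the 95% counting interval of the pileup and a dashed line at the median of all peaks in that list. Labels give the gene and the distance of the summit outside or inside the nearer gene end. Among the members CCND2 is highest in both panels, at 3.79 in 3A and 12.7 in WT, and the other WT folds run down to 2.92 at CCNE1.

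Several mutant summits lay beyond the 5 kb window, in other genes. The nearest 3A summit to CCND3 was 13442 bp from it, inside BYSL, a ribosome assembly gene, with a 3A fold of 3.19, and the nearest WT summit beyond the window, also inside BYSL, had a WT fold of 9.55. The nearest to CDK6 was 14667 bp away, inside FAM133B, with a 3A fold of 3.32, and a WT summit in the same gene had a WT fold of 4.13. Beyond its own 3A summit, CDK4 had the next one 19757 bp away at METTL1, a tRNA methyltransferase gene, with a 3A fold of 5.06 and a WT fold of 13.5. The site at METTL1 had the higher fold of the pair in each list: 5.06 against 3.12 at CDK4 in the 3A list, and 13.5 against 6.69 in the WT list. For the other members without a 3A summit the nearest one lay 96534 bp (CCNE1) to 616525 bp (E2F1) away. For 7A, the nearest summit was over 1 Mb from every member except CCND1.

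**Figure D4:**
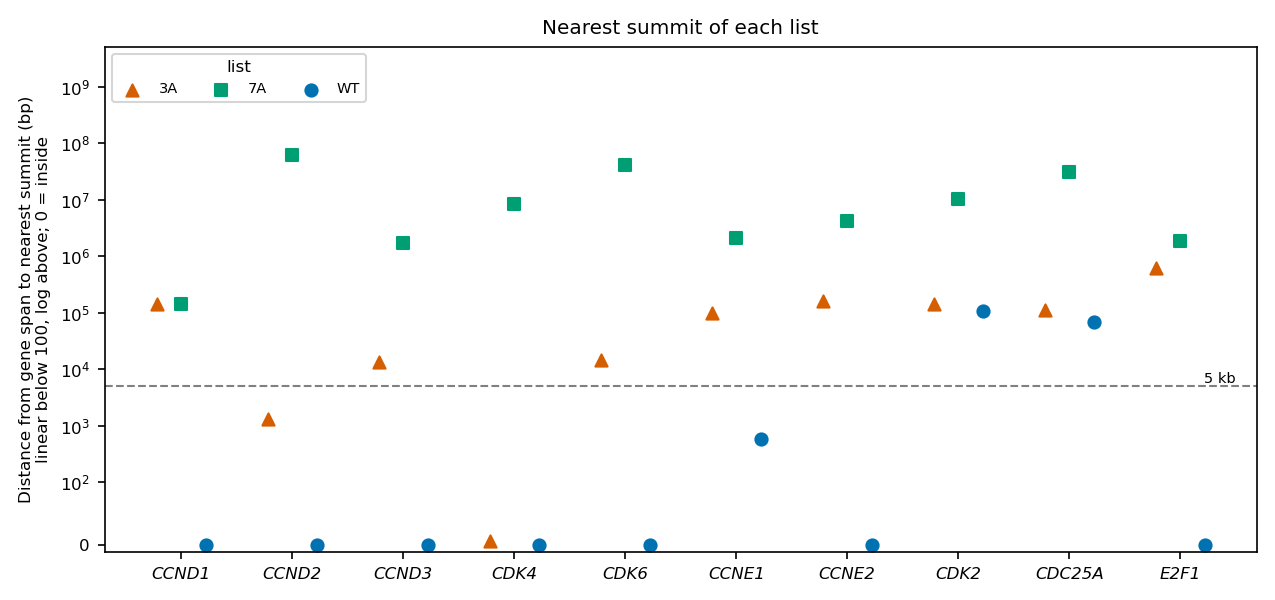
Distance from each gene span to the nearest 3A, 7A and WT summit (vertical axis in bp, linear below 100 and logarithmic above, 0 meaning inside the span), with a dashed line at 5 kb. WT summits lie at or near 0 for 8 genes, 3A summits fall under the line at CCND2 and CDK4, and the 7A summit nearest to any member is 143711 bp from CCND1.

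The nearest distal peak of CCND1 differed between the lists. In the 3A list it lay 143883 bp outside the low-coordinate end of the gene, in the 7A list 143711 bp outside that end, and in the WT list 20675 bp beyond the opposite end, inside LTO1. The WT summit in LTO1, an adaptor gene in the maturation of iron-sulfur proteins, had a fold of 4.62 (3.52 to 5.97) and no mutant counterpart. The second WT site in order of distance was the site of the mutants, 143697 bp outside the gene.

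This distal site was the only one within 1 Mb of CCND1 that all 3 lists shared. That range held 3 peaks of the 3A list, 1 of the 7A list and 9 of the WT list. The 3A peak spanned 69497085 to 69497704, the 7A peak 69497115 to 69497727 and the WT peak 69497050 to 69497660, so the peaks were almost superimposed. The 7A and WT summits were 14 bp apart, while the 3A summit was 172 bp from the 7A summit and 186 bp from the WT summit. The site lay in no annotated gene of the table, and CCND1 was the nearest protein-coding gene. Its fold was 4.55 (3.56 to 5.73) in the 3A list, 4.29 (3.26 to 5.55) in the 7A list and 5.00 (3.82 to 6.44) in the WT list. The pileups behind these folds were 70 fragments over a background of 14.6 for 3A, 56 over 12.3 for 7A and 58 over 10.8 for WT. Within its own list the site ranked 95 of 845 for 3A and 7 of 64 for 7A, and 2516 of 4749 for WT. It was among the stronger sites of both mutant lists and a middling site of the WT list, and ranks in lists of such unequal length show no change. Of the 64 7A peaks 43 overlapped both a 3A and a WT peak, so a site common to all lists is usual for 7A. Whether the signal at such sites depends on FLAG-tagged MYC was not tested.

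A further site 343680 bp from CCND1 in the 3A list, 189 bp from MYEOV, had a 3A fold of 4.51 and overlapped a WT peak with a fold of 6.01. No 7A peak was there.

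**Figure D5:**
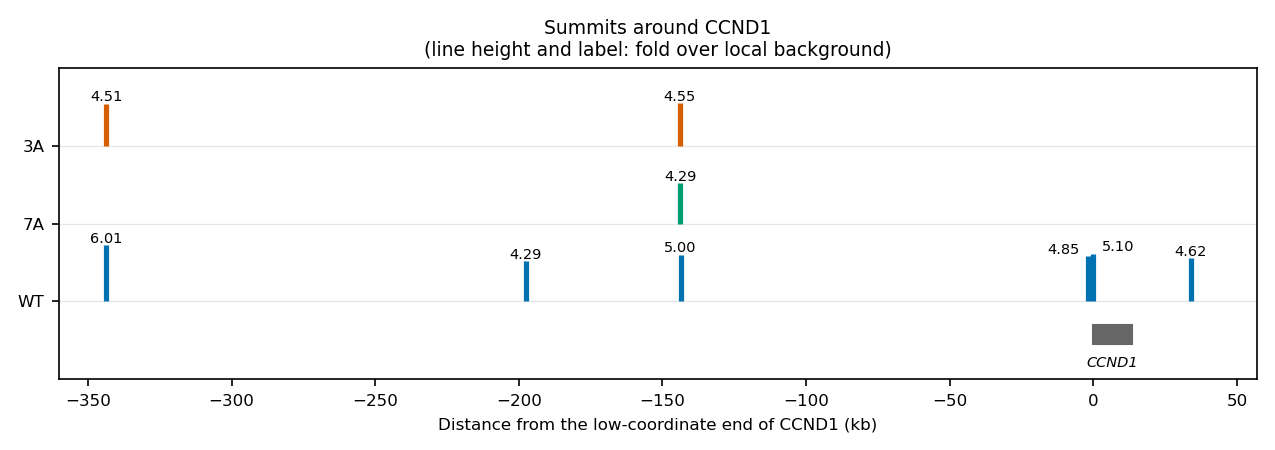
Summits around CCND1 in the 3A, 7A and WT lists, plotted by distance in kb from the low-coordinate end of the gene, with line height and label giving the fold over local background in that list. The 3 lists share a site 143697 to 143883 bp outside the gene, and the sites at the gene and in its 5 kb surroundings are in the WT list alone.

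Other cell-cycle genes were counted by the same rule from a list of 37, made up of RB family members, other E2F and DP factors, further cyclins, kinases, CDC25 phosphatases, SCF subunits and CDK inhibitors. The list is not confined to G1/S, since it holds genes of mitotic entry as well. A 3A summit was found at 2 of 37 (5.41%), a 7A summit at 0 of 37 and a WT summit at 14 of 37 (37.8%). Over all protein-coding genes the shares were 4.81% for 3A, 0.225% for 7A and 23.8% for WT. The 3A and 7A counts are thus near the general shares and are no result about these genes. Of the 14, CCNB1, CDK1 and CDC25B are known to act at the entry into mitosis. Both 3A-bound genes were also WT-bound. They are 14.3% of the 14 WT-bound genes, beside 18.6% of all WT-bound genes. RBL1, the gene of the RB relative p107, had its summit 161 bp outside the span with a fold of 2.99 in the 3A list and 34 bp outside it with a fold of 3.18 in the WT list, where it was above 5.39% of peaks. At CKS2, a gene of a small subunit of CDK complexes, the fold was 3.20 in the 3A list and 7.90 in the WT list. That site lay 1650 bp (3A) and 1664 bp (WT) outside CKS2 and much nearer to SECISBP2, from whose end the WT summit was 133 bp away.

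The strongest WT site near any of the 37 was by CDC25B, the CDC25A relative that acts at the entry into mitosis, with a fold of 15.8. The summit lay 2180 bp beyond the high-coordinate end of the span (3786951 to 3806115) and far from its low-coordinate end. It was above 98.8% of WT peaks and had no mutant counterpart. E2F5 (8.47) and E2F6 (7.25), which encode E2F factors that repress transcription, had WT summits 661 and 483 bp inside their spans. CCNA2, the S-phase cyclin gene, had a WT fold of 5.67 with the summit 37 bp inside, and CDKN2D, the gene of an inhibitor of CDK4 and CDK6, had a WT fold of 4.93 at a summit 543 bp outside its span and inside KRI1. Among those with no summit in any list, named here after their values were seen, were RB1, the gene of RB itself, and CDKN1A and CDKN1B, which encode inhibitors of cyclin E with CDK2.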

How the data were processed

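ChIP-Rx of FLAG-tagged MYC was analysed from 3 deposited narrowPeak lists without headers. MACS2, Picard, SAMtools, Bowtie2 and cutadapt are listed in the submitters' processing notes with no role stated, as are hg38, hg19 and mm10. How the 2 IP libraries, the control and the mouse reads entered a list is not given in the sources used here. The authors deposited for each peak a fold enrichment (a ratio), a −log10 p-value, a −log10 q-value and a score, the last not used. Read totals were not used, so sequencing depth is unknown.

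The hg38 build was checked on the WT list, where 60.2% of summits were within 1 kb of the end of a coding gene of GRCh38.p14, and 4.59 to 5.96% after shifts of 100 or 500 kb. The summit is the peak start plus the deposited offset, and coordinates count from 1. Peaks were shared if they overlapped by at least 1 bp. Pileup and background were solved together from the fold, (pileup + 1)/(background + 1), and the p-value, a Poisson tail. The p-value was met within 0.02 of a pileup step for 845 of 845 3A, 63 of 63 7A and 4731 of 4731 WT peaks tried. Peaks on the mitochondrial genome or with a −log10 p of 300 or more were not tried. On simulated data 1988 of 1988 pileups were recovered. Promoter sequences and gene spans are RefSeq's, and the bases after a start were left out of the printed stretches.

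No test was run. Every member is named, and of the other cell-cycle genes the 6 with the highest WT fold and those with a mutant summit. CCNB1, CDK1, RB1, CDKN1A and CDKN1B were named outside this rule. The members and lists were chosen with earlier results of these data known. Alternatives covered the window, the q threshold, whole peaks in place of summits, merged peaks, the overlap rule and ranking by q. Software was matplotlib 3.10.9, pandas 2.3.3, scipy 1.17.1 and numpy 2.4.6 under Python 3.11.15.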

Additional observations from a re-analysis of the deposited data

How the results depend on the processing

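Of 64 values recomputed under the alternatives 53 were identical, 5 counts changed by no more than 1.5 times, and 6 moved: 4 counts in the 3A list by more than that and the median percentiles in 2 lists. The 5 were the WT summits, 9 with a window of 1 kb, 8 with 500 bp, 10 near gene ends only and 9 with peaks merged in place of 11, and the WT members with 500 bp. With a window of 1 kb or of 500 bp, 1 member and 1 summit remained in the 3A list in place of 2, because the CCND2 summit lies 1303 bp outside the gene. Ranked by −log10 q in place of fold, the median percentile of the members' summits was 67.2 in the 3A list (51.6 by fold) and 59.9 in the WT list (about the middle of the list by fold), and 11 of 13 single summits stood higher. Counts in the 7A list stayed at 0 in all alternatives run, which was fixed in advance, since the nearest 7A summit to any member lay 143711 bp away. The WT count of 8 members became 7 with a window of 500 bp, which leaves out CCNE1, and stayed at 8 in the others. At a −log10 q of at least 10 the counts and the distal distances of CCND1 were as given. The threshold could remove nothing there. The lowest −log10 q at a member summit was 11.7 (CCNE1), and the nearest distal peaks of CCND1 had 14.0 to 20.4. These values and the 7A counts are among the 53 identical ones and say little about robustness. No paired analysis was possible because each protein has 1 list and no test was run. Leaving out a replicate was not possible for the same reason. The pileup of 54 to 251 fragments at the WT summits limits how finely their folds can be ordered.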
